A study of Mus musculus with 12 samples.

Results

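Carbonic anhydrases were followed in the transcriptomes of isolated muscle fibers through 5 genes, *Car3*, *Car2*, *Car4*, *Car5b* and *Car14*, taken by symbol from the 55367 gene symbols listed for every sample. They are 5 of the 16 genes of the mouse family that were listed. The set was selected on measured values: *Car3* was chosen by its higher TPM in both aged groups, so its levels against young fibers are a description here and carry no test, and the others joined it as relatives. The fibers came from the extensor digitorum longus (EDL), a fast muscle of the lower leg, of C57BL/6J mice. The 12 samples formed 3 groups of 4, namely fibers of young mice aged 3 to 4 months, and fibers of aged mice of 26 to 28 months that were sorted by eye into Fluo-4 normal and Fluo-4 abnormal fibers. Fluo-4 is a dye whose fluorescence rises with calcium, and fibers were called abnormal by how this dye stained them. No transgene or drug was part of these groups. The young mice were bought from a breeder and the aged mice came from an institute's colony, so age and source cannot be told apart. The labels do not say that the 4 samples of a group came from separate mice, nor how many fibers each pool held, so the p-values measure the spread between these samples, which may be in part technical. The 6 muscle fiber markers (*Acta1*, *Ckm*, *Ttn*, *Neb*, *Mylpf* and *Tnnt3*) were all above 0 and summed to between 106746 and 139927 TPM, a length-scaled share of transcripts, in each sample, and 16841 to 17936 symbols per sample were above 0.

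Carbonic anhydrases are zinc enzymes that interconvert carbon dioxide and bicarbonate, releasing or taking up a proton. Working muscle makes carbon dioxide and lactic acid, and enzymes in the cytosol, in mitochondria and at the membranes speed the exchange of carbon dioxide, bicarbonate and protons. The isoforms differ in place and speed. Carbonic anhydrase 3, the product of *Car3*, is a cytosolic isoform of low hydratase activity that is abundant in slow muscle fibers, liver and fat cells. The product of *Car2* is a fast cytosolic enzyme found in many cells, red blood cells among them, that of *Car5b* is mitochondrial, and those of *Car4* and *Car14* are bound to membranes with the active site facing outward.

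On the GRCm39 assembly, the build named for the deposited values, *Car3* (ENSMUSG00000027559.7) spans chr3:14928489-14937595 on the plus strand and *Car2* (ENSMUSG00000027562.14) spans chr3:14951317-14967568 on the same strand. The pair lie 13721 bp apart, next to each other within a cluster of family genes that also holds *Car1* and *Car13*. *Car14* (ENSMUSG00000038526.16) lies far along the same chromosome at chr3:95805079-95812646 on the minus strand, *Car4* (ENSMUSG00000000805.20) at chr11:84848020-84856879 on the plus strand, and *Car5b* (ENSMUSG00000031373.6) at chrX:162759818-162811025 on the minus strand. In the GENCODE vM39 annotation, 823 bp of *Car14* overlap *Aph1a* on the other strand, 486 bp of them exonic, and the library kit does not keep strand. *Aph1a*, which encodes a subunit of gamma-secretase, was at similar means in the 3 groups, 6.08, 6.35 and 6.40 TPM in young, Fluo-4 normal and Fluo-4 abnormal fibers. *Car3* overlaps a long non-coding RNA gene, *Gm56774*, by 177 exonic bp. No member had a near-identical transcript of another gene, taken as a match of 95% identity or more that covers 100 bp and 50% of its transcript.

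The levels of the 5 genes lay far apart. TPM values are scaled for transcript length, so genes may be compared. Ranked by mean among the 14428 genes tested, *Car3* was 276th in young fibers, 85th in Fluo-4 normal and 50th in Fluo-4 abnormal fibers. *Car14* ranked 2139th, 1332nd and 1693rd, and *Car2* ranked 6933rd, 4561st and 7554th. *Car4* was below 1 TPM in 10 of 12 samples, and *Car5b* was below 0.12 TPM in all 12.

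**Figure D1:**
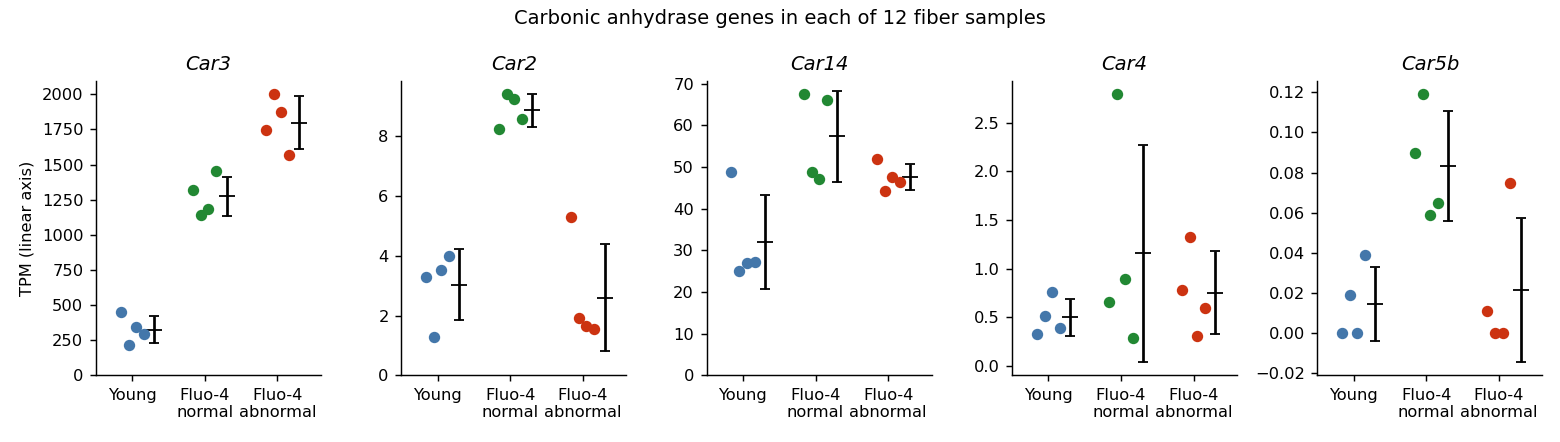
TPM (linear axes, which differ between panels) of the 5 carbonic anhydrase genes in young, Fluo-4 normal and Fluo-4 abnormal fibers. Each point is 1 sample, and the bar beside it is the mean with the SD (n = 4 per group). *Car3* sits in 3 bands without overlap, *Car2* is high in the Fluo-4 normal samples, and *Car14* has 1 young sample at 48.8 TPM among the aged values.

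*Car3* was the most abundant member in every sample. It was at 451, 214, 345 and 296 TPM in the young samples (replicates 1 to 4), at 1317, 1139, 1184 and 1452 TPM in the Fluo-4 normal samples, and at 1746, 2005, 1877 and 1568 TPM in the Fluo-4 abnormal samples. Every aged sample lay above every young sample, with the lowest Fluo-4 normal sample 2.52-fold above the highest young one. Means were 326 ± 99.2, 1273 ± 141 and 1799 ± 187 TPM (SD, n = 4). These are 3.90-fold and 5.51-fold the young mean in Fluo-4 normal and Fluo-4 abnormal fibers, or 2.00 and 2.50 on the log2(TPM + 1) scale. The relative spread was larger among young samples, with a coefficient of variation of 30.4%, than among Fluo-4 normal (11.1%) or Fluo-4 abnormal samples (10.4%).

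The step from Fluo-4 normal to Fluo-4 abnormal fibers was not itself the ground for picking *Car3*, and it was tested. The levels in both aged groups did enter that choice, which was made with earlier results of these data known. All 4 Fluo-4 abnormal samples were above all 4 Fluo-4 normal samples, but the gap was narrow: the lowest abnormal value was 1.08-fold the highest normal one. The difference was 0.50 on the log2 scale (SE 0.17, 95% interval 0.12 to 0.87; 1.41-fold in the means). It did not pass the threshold of 0.05 after Benjamini-Hochberg adjustment over all 14428 genes (limma, adjusted p = 0.0899). In this contrast 9.35% of the tested genes were called, and 14.0% had groups that did not overlap. Same-numbered Fluo-4 normal and abnormal samples deviated together across genes, and within these pairs *Car3* was higher in the abnormal sample in 4 of 4, by 1.33-, 1.76-, 1.59- and 1.08-fold. With the replicate number as a block over all 12 samples it did not pass (adjusted p = 0.0720, limma). In a fit of the aged groups only with that block, chosen after seeing the data, adjusted p was 0.0172, and it also passed without young replicate 1 (0.0438) or young replicate 2 (0.0327). The size of the difference depends on scaling. The median change of all tested genes in this contrast was 0.10, and when TPM were rescaled with trimmed-mean (TMM-type) factors, which set that median to 0.00, *Car3* differed by 0.27 (adjusted p = 0.55). With the same rescaling the genes called numbered 293 higher and 552 lower, against 1062 higher and 287 lower without it.

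*Car3* is rich in fat cells and in slow fibers, so markers of both were read in the same samples. Of 8 adipocyte markers, 4 (*Adipoq*, *Plin1*, *Lep* and *Cidec*) were listed at 0 in all 12 samples, among them the defining markers *Adipoq* and *Plin1*. The other defining marker, *Cfd*, was above 0 in Fluo-4 normal fibers and in no other group, and reached at most 2.77 TPM. The summed list ran from 20.8 to 33.7 TPM in young, 40.9 to 116 TPM in Fluo-4 normal and 16.5 to 71.7 TPM in Fluo-4 abnormal samples, and *Fabp4*, also an endothelial gene, was its largest part. Of the 10 slow fiber genes, 1 was called in Fluo-4 abnormal against Fluo-4 normal fibers, a share near the 9.35% of all tested genes. It was *Atp2a2*, the slow and cardiac calcium pump, at 0.95 (SE 0.25, adjusted p = 0.0296, limma), and that call was lost with TMM-type scaling (0.79, adjusted p = 0.0503). Against young fibers 0 of the 10 were called in either aged group (limma). That is near the shares of all tested genes called, 1.15% for Fluo-4 normal and 8.50% for Fluo-4 abnormal fibers. An unadjusted p under 0.05 was reached by 1 of the 10 in Fluo-4 normal and 2 in Fluo-4 abnormal fibers. *Myh7*, the slow myosin heavy chain, was at 0.005 to 0.205 TPM in all 12 samples. The part of these cell and fiber types in the level of *Car3* was not tested. In such pooled samples, fewer cells of a type and less RNA per cell cannot be told apart.

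**Figure D2:**
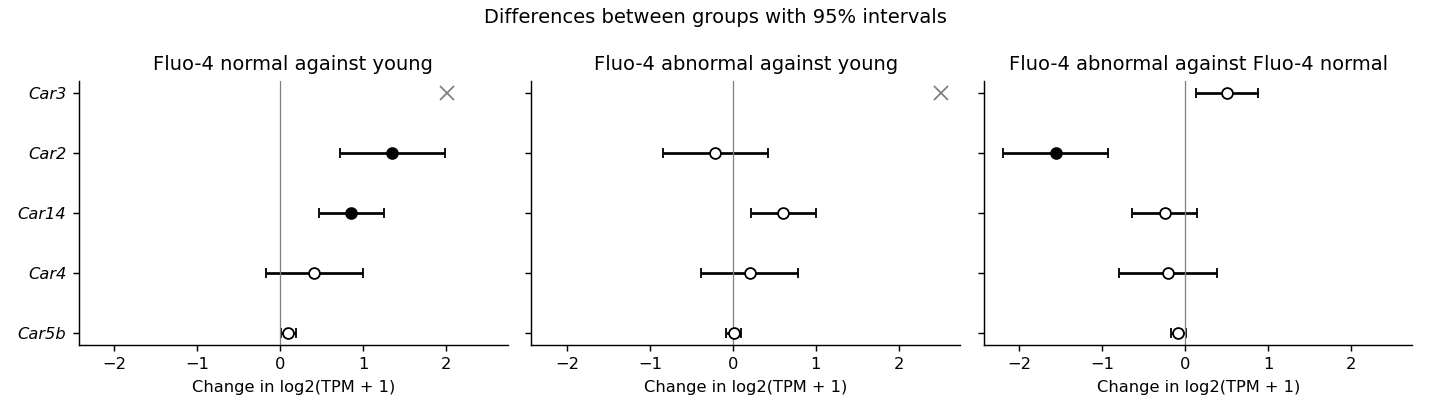
Change in log2(TPM + 1) of the 5 genes in the 3 comparisons, with 95% intervals from limma (4 samples per group). Filled points passed adjusted p under 0.05, open points did not, and grey crosses are *Car3* against young fibers, which was not tested. *Car2* is filled at 1.35 in Fluo-4 normal against young fibers and at −1.56 in Fluo-4 abnormal against Fluo-4 normal fibers.

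*Car2*, next to *Car3* in the cluster of family genes, was higher in Fluo-4 normal fibers than in either other group. It was at 3.29, 1.30, 3.52 and 3.97 TPM in young samples, at 8.22, 9.40, 9.22 and 8.58 TPM in Fluo-4 normal samples, and at 5.28, 1.91, 1.64 and 1.55 TPM in Fluo-4 abnormal samples. The 4 Fluo-4 normal samples lay above all other samples and within a narrow band, with a mean of 8.85 ± 0.55 TPM (SD, n = 4). The abnormal samples held 1 value, replicate 1, above all young samples, and the other 3 were at the low end of the young range.

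In Fluo-4 abnormal against Fluo-4 normal fibers *Car2* fell by 1.56 on the log2 scale (SE 0.29, 95% interval −2.19 to −0.93, adjusted p = 0.00649, limma), a 3.41-fold lower mean. Abnormal was lower in 4 of 4 same-numbered pairs, and without abnormal replicate 1 the difference was −1.87 (adjusted p = 0.00106). Of the 5 members, *Car2* alone was called in this contrast, in which 9.35% of tested genes were called. In Fluo-4 normal against young fibers *Car2* rose by 1.35 (SE 0.29, 95% interval 0.72 to 1.98, adjusted p = 0.0443, limma; 2.93-fold in the means). Only 1.15% of tested genes were called in that contrast, and 7.98% had groups that did not overlap. That call was near the threshold and was lost when any 1 sample was left out, other than Fluo-4 abnormal replicate 1 (adjusted p from 0.0516 to 0.127). Fluo-4 abnormal and young fibers differed by −0.21 (95% interval −0.84 to 0.42, adjusted p = 0.71). In order of mean, Fluo-4 normal was followed by young and then Fluo-4 abnormal fibers, and these last neighbours did not differ beyond their spread.

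**Figure D3:**
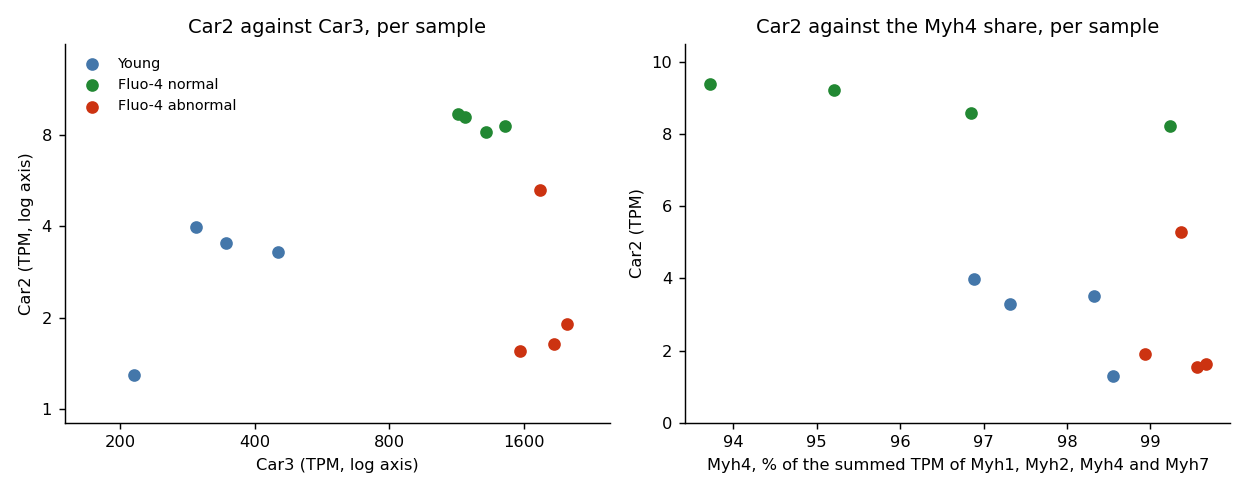
Left, *Car2* against *Car3* in TPM (both axes logarithmic). Right, *Car2* in TPM against the share of *Myh4* in the summed TPM of *Myh1*, *Myh2*, *Myh4* and *Myh7*. Each point is 1 of the 12 samples, coloured by group. On the left, the Fluo-4 normal samples sit alone at the upper right and 3 of 4 abnormal samples at the lower right.

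The ratio of the TPM of these neighbouring genes set the 3 groups side by side. It was 74.4 to 165 *Car3* transcripts per *Car2* transcript in young samples and 121 to 169 in Fluo-4 normal samples, ranges that overlap. In Fluo-4 abnormal samples it was 330, 1048, 1146 and 1009. The abnormal sample with the low ratio is replicate 1, the one with the most *Car2*.

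By their myosin, all 3 groups were almost wholly of type IIb fibers. *Myh4*, the heavy chain of the fastest fibers, held 96.9% to 98.6% of the summed TPM of the 4 adult heavy chains in young samples, 93.7% to 99.2% in Fluo-4 normal and 98.9% to 99.7% in Fluo-4 abnormal samples. *Myh4* was higher in Fluo-4 abnormal than Fluo-4 normal fibers (0.66, SE 0.16, adjusted p = 0.0198, limma; 0.43 and adjusted p = 0.19 with TMM-type scaling). *Myh1*, of type IIx fibers, was at 44.3 to 147 TPM in Fluo-4 abnormal and 46.2 to 542 TPM in Fluo-4 normal samples (−1.81, adjusted p = 0.087). With the *Myh4* share of each sample as a covariate, the *Car2* difference between the aged groups was −1.31 and its adjusted p 0.0772. The part of fiber type in the *Car2* difference was not tested further.

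Red cells are rich in carbonic anhydrases, *Car2* among them, so their markers were read too. The 7 erythroid markers summed to 33.1 to 121 TPM in young, 119 to 482 TPM in Fluo-4 normal and 44.4 to 236 TPM in Fluo-4 abnormal samples, nearly all from hemoglobin genes. *Slc4a1*, the anion exchanger of red cells, was listed at 0 in all 12 samples, whereas the hemoglobin genes that define the list were above 0 in all of them. Mean sums were highest in Fluo-4 normal fibers, as *Car2* was, at 224 TPM beside 138 TPM in Fluo-4 abnormal and 86.7 TPM in young fibers. Fluo-4 normal replicate 2 had the highest sum, 482 TPM, and the highest *Car2*, 9.40 TPM, of all 12 samples. The abnormal sample with the highest sum, 236 TPM, had the lowest *Car2* of its group, 1.55 TPM. The Fluo-4 normal sample with the lowest sum, 119 TPM, had 9.22 TPM of *Car2*. The part of red cells in the *Car2* difference was not tested.

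**Figure D4:**
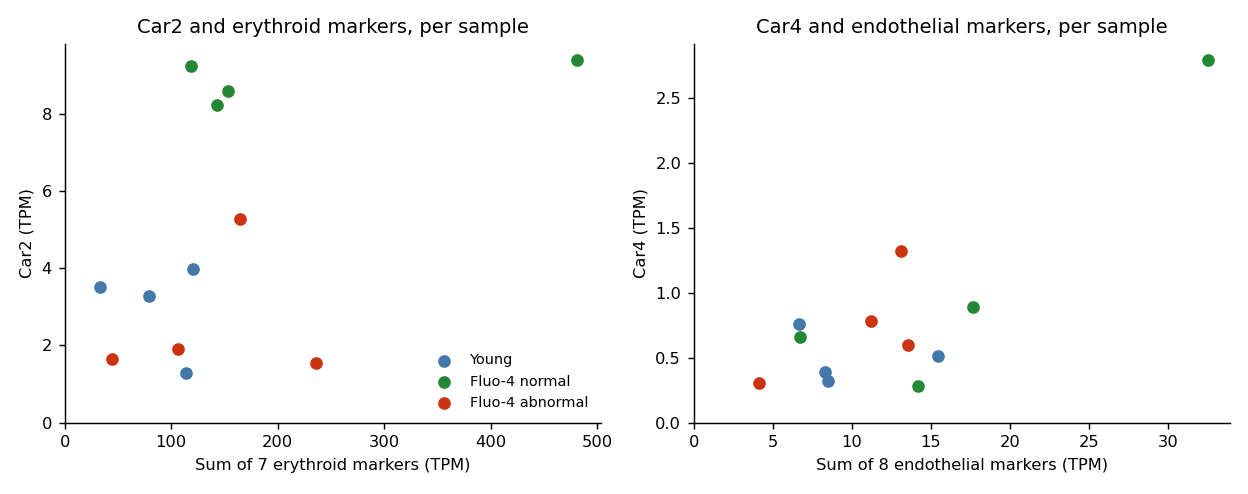
Left, *Car2* (TPM) against the sum of 7 erythroid markers (TPM). Right, *Car4* (TPM) against the sum of 8 endothelial markers (TPM). Each point is 1 of 12 samples, and all axes are linear from 0. Fluo-4 normal replicate 2 lies at the far right of both panels, at 482 and 32.5 TPM, and has the highest *Car4*, 2.79 TPM.

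*Car14* was the second most abundant member. It was at 48.8, 25.2, 27.0 and 27.3 TPM in young samples, at 67.6, 48.9, 47.2 and 66.1 TPM in Fluo-4 normal samples, and at 51.9, 44.3, 47.8 and 46.4 TPM in Fluo-4 abnormal samples. Young replicate 1 stood among the aged values, and the other 3 young samples lay below every aged sample. *Car14* was higher in Fluo-4 normal than young fibers by 0.86 (SE 0.18, 95% interval 0.46 to 1.25, adjusted p = 0.0431, limma; 1.79-fold in the means). That call also sat near the threshold. It was lost with TMM-type scaling (0.91, adjusted p = 0.0546) and without any 1 sample other than young replicate 1, whose removal raised the difference to 1.07 (adjusted p = 0.00239).

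Fluo-4 abnormal fibers were 0.61 above young fibers in *Car14* (SE 0.18, 95% interval 0.21 to 1.00), which did not pass (adjusted p = 0.0569, limma), in a contrast in which 8.50% of tested genes were called and 16.2% had groups that did not overlap. Without young replicate 1 it passed, at 0.82 (adjusted p = 0.00374). The aged groups overlapped and differed by −0.25 (95% interval −0.64 to 0.14, adjusted p = 0.43). In order of mean, Fluo-4 normal was followed by Fluo-4 abnormal and then young, and the aged neighbours did not differ beyond their spread.

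*Car4* was low throughout. It was at 0.324, 0.515, 0.762 and 0.390 TPM in young, 0.660, 2.79, 0.892 and 0.281 TPM in Fluo-4 normal and 0.782, 1.32, 0.305 and 0.596 TPM in Fluo-4 abnormal samples, with the groups overlapping. No contrast was called, with changes of 0.41 in Fluo-4 normal and 0.20 in Fluo-4 abnormal against young fibers (adjusted p = 0.58 and 0.71), and −0.21 between the aged groups (95% interval −0.79 to 0.38, adjusted p = 0.67). *Car4* is a known gene of capillary endothelium. The summed endothelial markers ran from 6.65 to 15.5 TPM in young, 6.73 to 32.5 TPM in Fluo-4 normal and 4.11 to 13.6 TPM in Fluo-4 abnormal samples. All 8 markers were above 0 in some sample of each group, and the sample with the highest sum, Fluo-4 normal replicate 2, also had the highest *Car4*. Without it the difference between the aged groups turned to 0.11 (adjusted p = 0.76). The part of endothelial cells in *Car4* was not tested.

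*Car5b*, the mitochondrial isoform, was barely detected. It was listed at 0, 0.019, 0 and 0.039 TPM in young, 0.090, 0.119, 0.059 and 0.065 TPM in Fluo-4 normal, and 0.011, 0, 0 and 0.075 TPM in Fluo-4 abnormal samples. The 4 Fluo-4 normal values were above all young ones, in a contrast where 7.98% of tested genes had groups that did not overlap. The difference of 0.09 did not pass over all genes (adjusted p = 0.36, limma). At such levels the size rests on the pseudocount, and with 0.1 in place of 1 the difference was 0.68 and that between the aged groups −0.62, neither called. A two-sided exact permutation test of this gene alone, unadjusted, gave p = 0.0286, the smallest that 4 against 4 samples allow. Any gene whose groups do not overlap reaches that value. The aged groups differed by −0.08 (adjusted p = 0.23), and Fluo-4 abnormal and young fibers by 0.01 (adjusted p = 0.93). Read counts were not used here, so how many reads these values stand for is unknown.

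The rest of the family was low. *Car5a*, *Car6* and *Car10* (3 of 16 genes) were listed at 0 in all 12 samples, and 13 of 16 passed the filter on low values. *Car3* made up 85.4% to 89.3% of the summed family TPM in young, 94.0% to 94.8% in Fluo-4 normal and 96.1% to 97.2% in Fluo-4 abnormal samples. The other family genes together came to 36.7 to 62.5 TPM in young, 65.2 to 85.3 TPM in Fluo-4 normal and 58.5 to 68.2 TPM in Fluo-4 abnormal samples, most of it *Car14*. Leaving *Car3* out, 12 genes were tested. In Fluo-4 normal against young fibers 11 of 12 differences were positive and 2 were called, *Car2* and *Car14* (1.15% of all tested genes were), with a median of 0.12 beside −0.02 over all genes tested. In Fluo-4 abnormal against young fibers 11 of 12 were positive and 0 were called (limma), with a median of 0.10 beside 0.07. At an unadjusted p under 0.05 there were 2, and 8.50% of all tested genes were called. With TMM-type scaling 9 of the 12 were positive and 3 negative in this contrast, and 0 were called. Between the aged groups 5 were positive and 7 negative, 1 was called (*Car2*, lower), a share near the 9.35% of all tested genes, and the median was −0.05 beside 0.10.

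*Car11*, whose product lacks the catalytic activity, came after *Car3* and *Car14* by mean in young and Fluo-4 abnormal fibers, and after *Car2* as well in Fluo-4 normal fibers. It was at 7.62 to 8.44 TPM in young, 5.14 to 6.30 TPM in Fluo-4 normal and 6.14 to 10.0 TPM in Fluo-4 abnormal samples. It was the 1 gene with a negative difference in Fluo-4 normal against young fibers (−0.40, adjusted p = 0.23), and it was 0.44 above Fluo-4 normal fibers in the abnormal ones (SE 0.14, adjusted p = 0.0764, limma), so neither passed. *Car9*, a membrane isoform known to be induced by hypoxia, was at 0.461 to 0.876 TPM in young, 0.436 to 1.62 TPM in Fluo-4 normal and 0.531 to 3.07 TPM in Fluo-4 abnormal samples (0.50 between the aged groups, adjusted p = 0.24). The other genes of the cluster around *Car3* and *Car2* stayed below 1 TPM. *Car1* differed by 0.19 between the aged groups (adjusted p = 0.33) and *Car13* by 0.20 (adjusted p = 0.46). *Car7*, *Car8*, *Car12* and *Car15* had group means from 0.050 TPM (*Car12*, young) to 0.981 TPM (*Car7*, Fluo-4 normal), and none was called in any comparison.

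**Figure D5:**
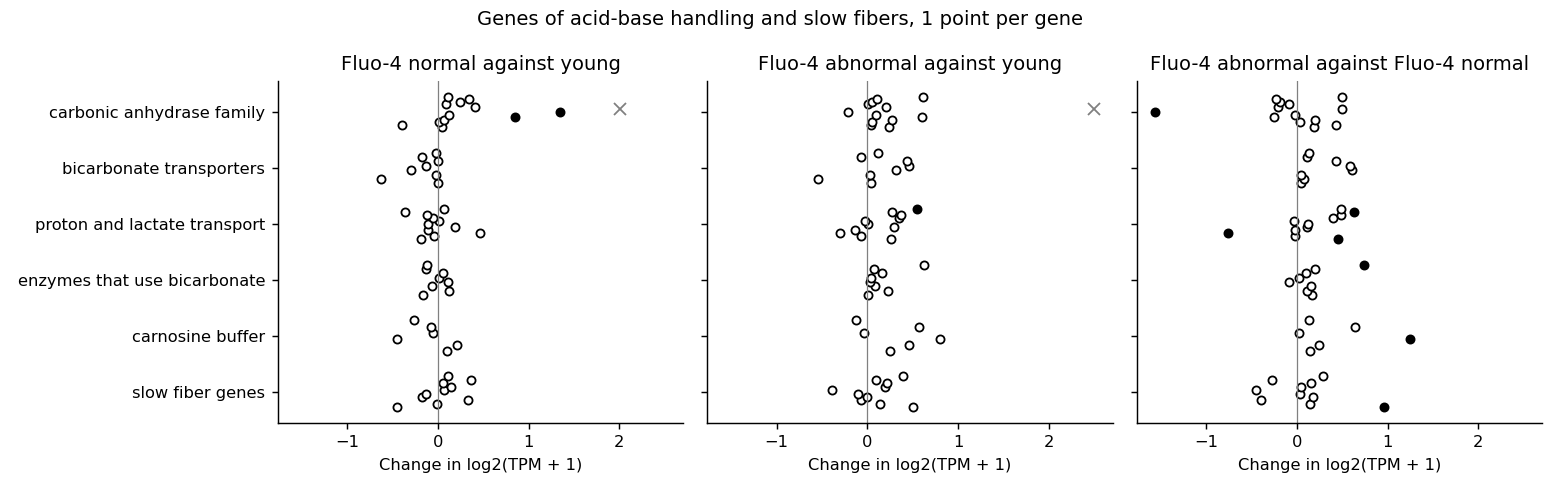
Change in log2(TPM + 1) of each tested gene of 6 lists in the 3 comparisons (4 samples per group). Filled points passed adjusted p under 0.05 (limma), open points did not, and grey crosses are *Car3* against young fibers, not tested. *Car2* at −1.56 stands apart in Fluo-4 abnormal against Fluo-4 normal fibers. The 8 bicarbonate transporters tested have no filled point, in comparisons where 1.15% to 9.35% of all tested genes passed.

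Genes that work beside carbonic anhydrases were read from lists of the same pathway. Of 13 bicarbonate transporters, 8 were tested and 0 were called in any comparison (limma). Of all tested genes, 9.35% were called in Fluo-4 abnormal against Fluo-4 normal fibers. The shares were 1.15% in Fluo-4 normal against young and 8.50% in Fluo-4 abnormal against young fibers, so 0 of 8 is near them. In the same order of comparisons, 3, 1 and 3 transporters had an unadjusted p under 0.05. With TMM-type scaling 1 transporter was called lower in Fluo-4 abnormal against young fibers, and 0 were called in the other comparisons. The electrogenic sodium-bicarbonate cotransporter *Slc4a4* had means of 7.58, 7.57 and 10.7 TPM in young, Fluo-4 normal and Fluo-4 abnormal fibers (0.43 between the aged groups, SE 0.16, adjusted p = 0.11). *Slc26a6*, with the highest means of the transporters tested, had 28.2, 17.6 and 18.6 TPM in the same order. Its differences from young fibers were −0.63 in Fluo-4 normal and −0.55 in Fluo-4 abnormal fibers (limma, adjusted p = 0.19 and 0.13), so neither passed.

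Of 11 tested genes of proton and lactate transport, 2 were called higher and 1 lower in Fluo-4 abnormal against Fluo-4 normal fibers (9.35% of all tested genes were called), and 0 in Fluo-4 normal against young fibers, where 2 had an unadjusted p under 0.05 and 1.15% of all tested genes were called. *Bsg*, the chaperone of the lactate transporters, was at 966 to 1296 TPM in Fluo-4 normal and 1430 to 1695 TPM in Fluo-4 abnormal samples (0.45, SE 0.11, adjusted p = 0.0192; 0.22 and adjusted p = 0.49 with TMM-type scaling). *Slc9a8*, a sodium-proton exchanger of the Golgi, was at 7.17 to 10.7 TPM and 11.7 to 17.8 TPM (0.63, SE 0.15, adjusted p = 0.0198; 0.42 and adjusted p = 0.0531 with that scaling). *Slc16a1*, the lactate transporter MCT1 of oxidative fibers, was lower in abnormal fibers, as *Car2* was, at 4.53 to 9.31 TPM against 10.3 to 16.2 TPM (−0.76, SE 0.20, adjusted p = 0.0280). *Slc16a3*, the transporter MCT4 of glycolytic fibers, had means of 254, 235 and 231 TPM in the 3 groups and was not called (−0.03 between the aged groups, adjusted p = 0.88). *Slc9a9*, an endosomal exchanger, was called in Fluo-4 abnormal against young fibers (0.55, SE 0.14, adjusted p = 0.0318; 1.56 with a pseudocount of 0.1), from 0.117 to 0.229 TPM in young and 0.406 to 1.36 TPM in abnormal samples.

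Enzymes that take bicarbonate as a substrate had 1 call in 8 tested genes between the aged groups, beside 9.35% of all tested genes. *Pcx*, pyruvate carboxylase, was at 11.3 to 19.8 TPM in Fluo-4 normal and 23.5 to 34.5 TPM in Fluo-4 abnormal samples (0.74, SE 0.21, adjusted p = 0.0457, limma), a call lost with TMM-type scaling (0.52, adjusted p = 0.0901). Of the 6 genes of the carnosine buffer, the dipeptide that takes up protons in fast fibers, 1 was called between the aged groups, beside the same 9.35%. This was *Slc15a4*, a lysosomal transporter of histidine and small peptides, at 5.74 to 9.15 TPM in Fluo-4 normal and 15.0 to 23.7 TPM in Fluo-4 abnormal samples (1.24, SE 0.25, adjusted p = 0.00992, limma). TMM-type scaling also changed the signs within these lists between the aged groups. It turned the enzymes from 7 positive of 8 to 3 of 8, the carnosine genes from 6 of 6 to 3 of 6 and proton and lactate transport from 7 of 11 to 5 of 11, whereas the family counted 6 positive and 7 negative with either scaling.

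The genes whose pattern was most like that of each member were found by Pearson's r of log2(TPM + 1) over the 12 samples, among about 9110 genes with a mean of at least 1 TPM. These are descriptions over samples that share groups and scaling. *Car3* was followed most closely by *Gas6* (r = 0.95), *Prkcz* (0.95), *Stom* (0.94), *Syt3* (0.94) and *Dkk3* (0.94). With group means removed, r was 0.43, 0.11, 0.00, 0.07 and −0.17, so the likeness lay in the means of the groups. *Dkk3*, a secreted protein of the Dickkopf family, had means of 33.4, 113 and 147 TPM in young, Fluo-4 normal and Fluo-4 abnormal fibers, and *Prkcz*, an atypical protein kinase C, 1.50, 6.94 and 8.97 TPM.

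*Car2* was most like *Fam57b* (r = 0.90; 0.59 with group means removed), *Slc25a34* (0.89; 0.53) and *Acadm* (0.89; 0.70). *Acadm*, which encodes the medium-chain acyl-CoA dehydrogenase of fatty acid oxidation, had means of 180 TPM in young, 237 TPM in Fluo-4 normal and 146 TPM in Fluo-4 abnormal fibers. *Car14* was most like *Ccdc136* (0.93, and 0.79 with group means removed), *Mpi* (0.93 and 0.77) and *Myl4* (0.89 and 0.71). *Car4* was most like *Mecom* (0.88; 0.96), *Steap4* (0.86; 0.83) and *Zfp236* (0.85; 0.86). *Car5b*, whose values were below 0.12 TPM, was most like *Rasl2-9* (0.91; 0.76), *Zfp52* (0.83; 0.57) and the hemoglobin gene *Hba-a1* (0.82; 0.83).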

How the data were processed

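RNA of isolated EDL myofibers (10 ng per library) was made into SMART-Seq v4 libraries. Per the authors, DRAGEN 4.3 was run on the GRCm39 assembly, and the deposited tables, 1 per sample, hold TPM. Read depth is unknown, so no counting interval is given. Symbols on several lines were summed, 49848 symbols matched current GENCODE vM39 names, and no sample column was left unused. The authors' TPM were transformed to log2(TPM + 1), and the 3 groups entered 1 linear model (limma 3.58.1, R 4.3.3, variance trend on). A gene was tested if it was protein-coding or encoded by mitochondrial DNA and had a group mean of at least 0.02 TPM (14428 genes), with Benjamini-Hochberg adjustment over all of them. The fit was checked on simulated data. Members and lists were chosen with earlier results of these data known. Named genes were the members, the family, myosins, and list genes past adjusted p 0.05 (at most 3 per list and comparison). Genes with the highest r were named too (5 for *Car3*, 3 for the others). *Slc4a4*, *Slc26a6* and *Slc16a3* were named after their values were seen, as were markers. Same-numbered samples of the aged groups correlated (r of deviations 0.33 to 0.51) and were taken as pairs, whereas young and aged samples of the same number did not (−0.12 to 0.24). Copies were sought with BLAST 2.17.0.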

Additional observations from a re-analysis of the deposited data

Results flagged for a closer look

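Within groups of 4 samples, 39 group-by-gene sets of the carbonic anhydrase family were examined for a sample far from the other 3, by Dixon's ratio of its gap to the range (above its 95% critical value), and 5 were found. Chance alone flags about 5% of such groups. *Car2* in Fluo-4 abnormal replicate 1 was at 5.28 TPM, against 1.55 to 1.91 TPM in the other 3. *Car14* in young replicate 1 was at 48.8 TPM, against 25.2 to 27.3 TPM. *Car1* in the same young sample was at 0.463 TPM, against 0.095 to 0.109 TPM. *Car8* in young replicate 2 was at 0.447 TPM, against 0.050 to 0.086 TPM, and *Car5b* in Fluo-4 abnormal replicate 4 was at 0.075 TPM, against 0 to 0.011 TPM.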

How the results depend on the processing

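*Car3* between the aged groups stayed positive in every alternative run (0.27 to 0.56 on the log2 scale). In 18 of 24 alternatives it did not pass, as in the main fit, with adjusted p up to 0.55 (limma). Among them were scaling without mitochondrially-encoded genes (0.16), sample quality weights (0.17) and the *Myh4* share as a covariate (0.28). At the same value, 0.50, it passed with a filter of 5 TPM (limma, adjusted p = 0.0401) and in a fit of only the groups compared (0.0273). It also passed with the replicate block of the aged pairs, chosen after seeing the data (0.0172). With the block over all 12 samples adjusted p was 0.0720. The exact permutation test, counted among the passes, gave p = 0.0286 (unadjusted), which only restates that these groups did not overlap. Without 1 sample each the *Car3* difference was 0.45 to 0.56, and passed without young replicate 1 (adjusted p = 0.0438) or young replicate 2 (0.0327). *Car2* between the aged groups lost its call with the *Myh4* share as a covariate (−1.31). *Car2* in Fluo-4 normal against young fibers was lost without a filter (1.35, adjusted p = 0.0802), with all annotated genes (1.35, 0.0685) and with the *Myh4* share (1.23), and ran from 1.10 to 1.47 without 1 sample. *Car14* in that contrast was lost at 0.86 without a filter, with all annotated genes, in a fit of only those groups (adjusted p = 0.0778) and in the exact permutation test (p = 0.0571), at 0.91 with TMM-type scaling and at 0.95 with the *Myh4* share, and ran from 0.76 to 1.07 without 1 sample. *Car14* in Fluo-4 abnormal against young fibers passed at 0.61 with a filter of 5 TPM (adjusted p = 0.0270) and with the replicate block (0.0128), and at 0.62 with a pseudocount of 0.1 (0.0437); without 1 sample it was 0.51 to 0.82, and passed without young replicate 1 or Fluo-4 normal replicate 1 (0.0473). *Car5b* in Fluo-4 normal against young fibers, at 0.094, had p = 0.0286 (unadjusted) in the exact permutation test, which only restates that these groups did not overlap. *Car4* between the aged groups reversed with the *Myh4* share (0.36) and ran from −0.41 to 0.11 without 1 sample, and *Car5b* in Fluo-4 abnormal against young fibers ran from −0.015 to 0.021 without 1 sample, negative without Fluo-4 abnormal replicate 4. The replicate block changed no other call of a member, and the cause of these changes was not tested. Young and aged samples of the same number did not correlate, so in contrasts with young fibers that block had no pairing behind it. Of the other named genes with a call, none changed direction in the called contrast. Calls were lost under 14 of 23 alternatives for *Pcx*, 9 of 22 for *Atp2a2* and 7 of 21 for *Slc9a9*. The losses were 6 of 23 for *Bsg* and for *Slc16a1*, 5 of 23 for *Myh4*, 4 of 23 for *Slc9a8* and 1 of 23 for *Slc15a4*. Genes called between the aged groups, 1349, fell to 845 with TMM-type scaling, 820 with the *Myh4* share, 748 in a fit of only those groups and 665 without Fluo-4 abnormal replicate 2. Those in Fluo-4 normal against young fibers, 166, ran from 55 without young replicate 2 to 358 with sample quality weights, with 266 at a filter of 5 TPM and 320 with the block, and those in Fluo-4 abnormal against young fibers, 1227, fell to as few as 604 without young replicate 4.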
